A study of Mus musculus with 32 samples.

Results

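The 10 genes described here were Fos, Fosb, Fosl1, Fosl2, Jun, Junb, Jund, Egr1, Atf3 and Ier2, which are members and relatives of the transcription factor AP-1 together with other immediate early genes. They were chosen by name, as the rows whose Ensembl identifier carries one of these symbols, and all 10 were found among the 50600 genes of the count and TPM tables (TPM is a level scaled by gene length and library size). All 10 passed the filter on low counts that left 17717 genes for testing. Messenger RNA was sequenced from 32 primary mouse melanomas in 4 groups of 8, named Ecad male, Ecad female, ΔEcad male and ΔEcad female after their labels. No treatment is named for any group, and the ages of the mice are not given in the sources used here. All mice carried Tyr::NrasQ61K, an activated Ras oncogene driven by the promoter of the melanocyte gene Tyr, on a C57BL/6J background. All were also Cdkn2a-/+, with 1 working copy of that tumour suppressor gene, and Cdh1F/F, with recombination sites flanking both copies of the E-cadherin gene. Ecad mice had no Cre (°/°). ΔEcad mice carried, according to the study's methods, a Tyr::Cre transgene that removes Cdh1 in cells using the Tyr promoter, and the sample labels write Tyr::NRAS/° in that place. Cells of the tumour that do not use this promoter keep Cdh1 in both genotypes. Nothing in the labels says whether each tumour came from a different mouse, so p-values measure the spread between these tumours. The data were used to ask whether the level of these genes followed genotype or sex, and which of them varied together from tumour to tumour.

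AP-1 is a dimer of leucine zipper proteins, usually 1 of the Fos family (Fos, Fosb, Fosl1, Fosl2) with 1 of the Jun family (Jun, Junb, Jund). Fos proteins bind DNA poorly without a Jun partner, whereas Jun proteins can pair among themselves. Immediate early genes such as Fos, Fosb, Junb, Egr1 and Ier2 are transcribed within minutes of a growth factor or stress signal, without new protein synthesis, and their RNAs are short-lived. Signalling from Ras through the ERK kinases is a classical route to these genes, and Fosl1 is known as a longer-lasting readout of that pathway in tumour cells.

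Total counts per tumour ranged from 24036333 to 63923086. Cdh1 ranged from 25 to 282 TPM (median 145) in Ecad males and from 0.79 to 65.2 TPM (median 3.29) in ΔEcad males, with a log2 fold change of -3.33 (SE 0.96) that did not pass the adjusted threshold (adjusted p = 0.365 by edgeR). In females it ranged from 2.16 to 151 TPM in Ecad and from 0.17 to 143 TPM in ΔEcad tumours, so Cdh1 did not separate the labelled genotypes in females. 3 libraries stood apart. The library labelled ΔEcad male 2 had 1752 counts of Xist and 0 counts over 4 Y-linked genes, against at most 46 and at least 1459 in the 15 other males. ΔEcad male 7 had a summed level of 31.8 TPM over 8 melanocytic markers, against at least 5885 in the other tumours, so the labelled tissue was not borne out by its defining markers there. ΔEcad female 3 had 0 counts over 5 red blood cell genes. Its summed endothelial, neutrophil and macrophage markers were the lowest of all tumours, at 0.59, 1.14 and 24.2 TPM. Its summed fibroblast markers were the highest, at 9541 TPM. Each comparison was also made without these 3 libraries.

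Jund was the most abundant of the 10 genes per length, with a median of 481 TPM over the 32 tumours (range 152 to 1180). Junb followed at 191 TPM, Jun at 115 TPM, Ier2 at 90.7 TPM and Fos at 83.2 TPM. Jund was above Junb in 31 of 32 tumours and Junb above Jun in 26. The order of Jun, Ier2 and Fos was less settled, since Jun exceeded Ier2 in 22 tumours and Ier2 exceeded Fos in 21. Lower levels were measured for Atf3 (median 31.3 TPM), Egr1 (26.3 TPM) and Fosl2 (22.7 TPM), and neighbours among these overlapped widely, Egr1 lying above Fosl2 in 17 of 32 tumours. Fosl1 (10.045 TPM) and Fosb (2.32 TPM) were lowest. The Jun family held the upper places and the Fos family members other than Fos the lower ones.

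The spread between tumours differed between the genes. Egr1, a zinc finger factor, had the widest range, from 2.06 TPM in Ecad female 8 to 451 TPM in Ecad female 3, a 219-fold difference. Fosl1 ranged 117-fold, from 1.38 TPM in ΔEcad male 1 to 162 TPM in ΔEcad male 7, the library with few melanocytic counts. Fosb, Fosl2 and Fos ranged 36.8-fold, 32.02-fold and 28.03-fold, and Atf3 17.1-fold. Junb, Jun, Jund and Ier2 were the steadiest, with highest values 9.34, 9.005, 7.77 and 5.81 times the lowest. Raw counts were above counting noise throughout, the lowest being 29 for Fosl1 and 47 for Fosb.

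**Figure D1:**
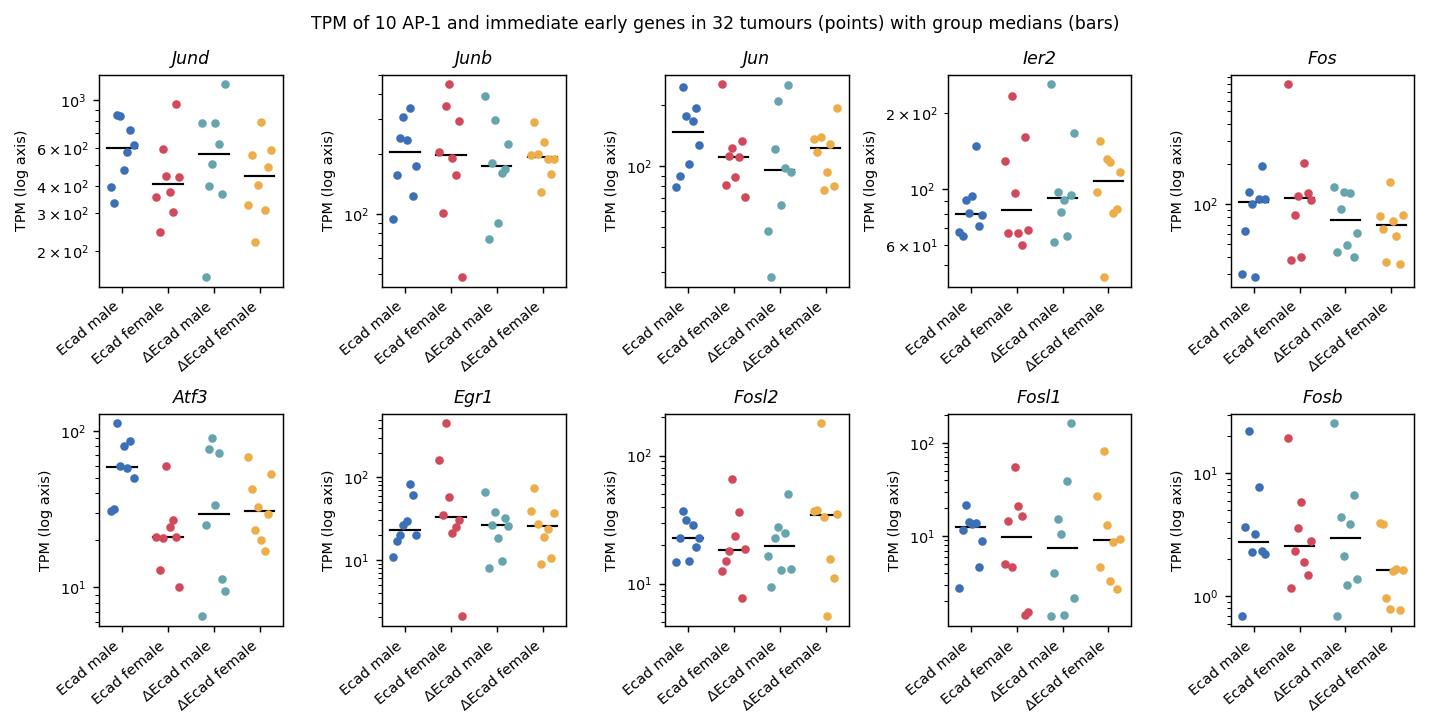
TPM (log axis) of each of the 10 genes in the 32 tumours, 1 point per tumour and a bar at each group median, with panels ordered by overall median. The 4 groups overlap in every panel, and single tumours stand far from their group, such as Egr1 in Ecad female 3 at 451 TPM and Fosb in ΔEcad male 1 at 25.4 TPM.

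The 250 bases before the start site are shown for 4 of the genes, because Fos and Jun varied together, Junb belonged to the group of genes with the closest co-variation, and Atf3 stood outside it (values below). Sequences are from RefSeq on GRCm38.p6, written 5′ to 3′ on the strand of the gene. Capitals mark matches on either strand to TGACGT or TGACNTCA, 2 forms of the cyclic AMP response element that AP-1 and ATF dimers can bind. The windows are chr12:85473640-85473889 (+) for Fos, chr4:95052223-95052472 (-) for Jun, chr8:84978749-84978998 (-) for Junb and chr1:191183334-191183583 (-) for Atf3.
Fos: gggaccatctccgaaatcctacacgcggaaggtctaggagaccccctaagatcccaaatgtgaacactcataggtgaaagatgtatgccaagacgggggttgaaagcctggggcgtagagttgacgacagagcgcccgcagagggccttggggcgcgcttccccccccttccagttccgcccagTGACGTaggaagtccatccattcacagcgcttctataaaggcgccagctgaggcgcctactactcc
Jun: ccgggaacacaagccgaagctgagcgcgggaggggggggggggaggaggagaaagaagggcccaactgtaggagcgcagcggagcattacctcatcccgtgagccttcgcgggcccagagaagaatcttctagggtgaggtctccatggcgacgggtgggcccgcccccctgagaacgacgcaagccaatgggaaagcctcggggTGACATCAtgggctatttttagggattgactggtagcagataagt
Junb: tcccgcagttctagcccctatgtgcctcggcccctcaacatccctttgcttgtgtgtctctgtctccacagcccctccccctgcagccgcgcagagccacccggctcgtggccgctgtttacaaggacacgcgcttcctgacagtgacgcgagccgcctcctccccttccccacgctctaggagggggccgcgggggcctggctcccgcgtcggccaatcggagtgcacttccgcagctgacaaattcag
Atf3: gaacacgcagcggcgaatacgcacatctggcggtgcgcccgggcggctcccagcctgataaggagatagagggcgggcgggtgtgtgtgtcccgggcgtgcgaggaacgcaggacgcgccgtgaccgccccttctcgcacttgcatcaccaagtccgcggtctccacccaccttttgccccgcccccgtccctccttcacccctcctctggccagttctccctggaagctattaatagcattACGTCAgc
Fos held TGACGT from position -66 and Jun held TGACNTCA from position -45, counted back from the RefSeq start site. Atf3 held TGACGT on the opposite strand, printed as ACGTCA, from position -8, and Junb held neither. Over all 32851 mouse promoter windows of this length, 6.47% held TGACGT and 7.49% held TGACNTCA on either strand. The AP-1 site (TGANTCA, in 6.75% of windows) and the CArG box bound by the serum response factor (in 1.47%) were in none of 7 windows. These were the windows of these 4 genes, Fosb, Fosl2 and Jund. The Jund window ended at chr8:70697738, short of the annotated gene start at chr8:70698949, so it does not adjoin that start. The Atf3 and Fosl2 windows lay within the annotated spans of their genes. No window was at hand for Fosl1, Egr1 or Ier2, and bases beyond 250 from the start were not read. The letters TGACNTCA and TGACGT overlap where N is G. The motifs were chosen with the sequences in view, and a match is a description of the letters in this window.

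In females, none of the 10 genes was called between ΔEcad and Ecad tumours, where a call required an adjusted p under 0.05 by edgeR over all tested genes and an absolute log2 fold change over 1. Across all tested genes 1.2% were called in this comparison, a count that lay between 1 and 695 genes when each tumour was left out (1 without any of several females such as Ecad female 1, 695 without ΔEcad female 4). Egr1 had the lowest p of the 10. It ranged from 2.06 to 451 TPM in Ecad females (median 32.9) and from 8.98 to 73.4 TPM in ΔEcad females (median 25.6). The ΔEcad values lay wholly inside the Ecad range. Its fitted log2 fold change was -1.95 (SE 0.71, unadjusted p = 0.00985 and adjusted p = 0.140 by edgeR) and became -0.63 without Ecad female 3. Fos ranged from 38.1 to 797 TPM in Ecad females (median 112) and from 35.3 to 148 TPM in ΔEcad females (median 70.1). Here too a single Ecad tumour carried most of the difference, the log2 fold change being -1.32 (SE 0.53, adjusted p = 0.189 by edgeR) with and -0.60 without Ecad female 1. The 8 other genes had unadjusted p of 0.0906 or more. Fosb had a log2 fold change of -1.31 (SE 0.75), and Fosl2 and Atf3 had values of 0.68 (SE 0.46) and 0.48 (SE 0.41). Without ΔEcad female 3 the value for Fosl2 was -0.047 and that for Fosl1 went from 0.27 to -0.58. Jun, Junb, Jund and Ier2 had values between -0.23 and -0.070, each smaller than its SE. The median over the 10 genes was -0.12, beside -0.018 over all tested genes.

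In males, none of the 10 genes was called between ΔEcad and Ecad tumours, in a comparison where edgeR called 0 of 17717 genes (0%) and 1814 had an unadjusted p under 0.05, while DESeq2 called 21. Ier2, a small nuclear protein of the early response, had the lowest p of the 10. It ranged from 65.2 to 149 TPM in Ecad males (median 80.01) and from 61.8 to 261 TPM in ΔEcad males (median 92.5). The groups overlapped, and the log2 fold change of 0.92 (SE 0.40, adjusted p = 0.454 by edgeR) was 0.33 without ΔEcad male 1. Fosl1 ranged from 2.79 to 21.6 TPM in Ecad males and from 1.38 to 162 TPM in ΔEcad males. Its log2 fold change was 1.35 (SE 0.82, adjusted p = 0.560 by edgeR), and 0.12 without ΔEcad male 7, in which its 162 TPM was the highest of all tumours. Atf3, an ATF family stress factor that pairs with Jun proteins, ranged from 30.7 to 112 TPM in Ecad males and from 6.54 to 90.5 TPM in ΔEcad males, with a log2 fold change of -0.55 (SE 0.41). The remaining genes had log2 fold changes between -0.28 and 0.78. The median over the 10 genes was 0.29, beside 0.11 over all tested genes.

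Between the sexes, none of the 10 genes was called in Ecad tumours (0.0508% of all tested genes were) or in ΔEcad tumours (0.0395%). In Ecad tumours the lowest p belonged to Atf3. In Ecad males Atf3 ranged from 30.7 to 112 TPM (median 58.9), and in Ecad females from 10.1 to 59.8 TPM (median 21.005). Of the 8 females, 7 lay below the lowest male, and Ecad female 4 at 59.8 TPM lay among the males. The log2 fold change was -1.34 (SE 0.42, unadjusted p = 0.0029 and adjusted p = 0.115 by edgeR), and it stayed between -1.59 and -1.17 when each tumour was left out in turn. DESeq2 called Atf3 here (adjusted p = 0.0284), where it called 5.77% of all tested genes, and the adjusted p ranged from 0.0284 to 0.897 over the alternatives. Egr1 differed the other way, with a log2 fold change of 1.75 (SE 0.71, adjusted p = 0.208 by edgeR) that was 0.42 without Ecad female 3. In ΔEcad tumours the lowest p belonged to Fosb. It ranged from 0.70 to 25.4 TPM in males (median 3.00) and from 0.77 to 3.97 TPM in females (median 1.63). The 0.70 TPM was that of the library labelled ΔEcad male 2, which had Xist counts and no Y-linked counts. The log2 fold change of Fosb was -2.32 (SE 0.77, unadjusted p = 0.00523 and adjusted p = 0.484 by edgeR) and became -0.68 without ΔEcad male 1. Without the 3 libraries that stood apart, ΔEcad male 2 among them, it was -2.48 (SE 0.84). In this comparison 9 of the 10 genes had values below 0, with a median of -0.49 beside -0.057 over all tested genes, and all of these genes were measured in the same 16 tumours. The sign of several depended on single tumours. With each tumour left out in turn, the highest values were 0.28 for Egr1, 0.50 for Fosl1, 0.022 for Ier2, 0.11 for Jun and 0.098 for Junb. Fos, Fosb, Jund and Atf3 stayed below 0.

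**Figure D2:**
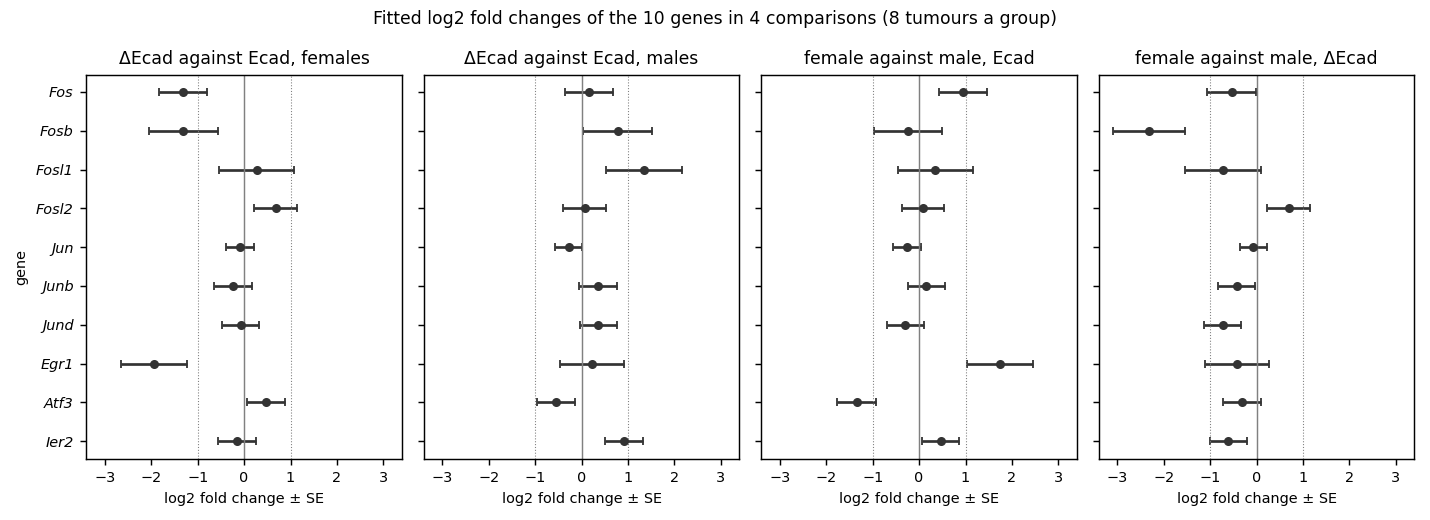
Fitted log2 fold change of each of the 10 genes (points) with its standard error (bars) in 4 comparisons of 8 tumours against 8, with dotted lines at -1 and 1. No value passed the adjusted threshold, and the points farthest from 0 are Fosb (-2.32) between ΔEcad sexes and Egr1 (-1.95) between female genotypes.

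The effect of genotype was not shown to differ between the sexes for any of the 10 genes (0% of all tested genes were called for this interaction, with 3131 at an unadjusted p under 0.05 in edgeR and 1225 called by DESeq2). The largest interaction was that of Egr1, with a log2 value of -2.18 (SE 0.98, unadjusted p = 0.0338 and adjusted p = 0.234 by edgeR), which was -0.85 without Ecad female 3. Fosb and Fos had values of -2.09 (SE 1.05) and -1.48 (SE 0.74), and Atf3 had 1.03 (SE 0.58). The median over the 10 genes was -0.83, beside -0.16 over all tested genes. In a test of the 4 groups together, 0.316% of all tested genes and none of the 10 passed. Egr1, Atf3 and Fosb had edgeR unadjusted p of 0.0189, 0.0197 and 0.0422 there, with adjusted p between 0.220 and 0.296.

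No keratinocyte marker was called in any comparison, where edgeR called from 0% to 1.2% of all tested genes. In females, all 10 keratinocyte markers had positive log2 fold changes (median 5.36), 9 of them at an unadjusted p under 0.05. Their summed level ranged from 5.22 to 1953 TPM in Ecad females and from 9.53 to 40064 TPM in ΔEcad females. The lowest p was that of Krt15 (log2 fold change 7.89, SE 2.17, adjusted p = 0.0537 by edgeR). Between Ecad sexes all 10 had negative values (median -4.85). In males all 10 were also negative (median -1.76), and the lowest p was that of Trp63 (log2 fold change -2.29, SE 1.36, adjusted p = 0.551 by edgeR). No gene of the 11 other marker lists, which covered melanocytic, immune, fibroblast, endothelial, muscle, fat, red blood and dividing cells, was called in any comparison. In bulk tumours fewer cells of a type and less RNA per cell cannot be told apart. With keratinocyte and melanocytic scores as covariates none of the 10 genes was called in any comparison, and the part of these cells in the values of the 10 genes was not tested beyond that.

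Other genes of the pathway were read from lists of AP-1 partners, early genes, upstream factors and targets. Of 29 other immediate early genes tested, Egr4 alone was called in females, where 1.2% of all tested genes were called. None was called in the 4 other comparisons. There the share of all tested genes called was 0.0508% or less, and 0% in males and for the interaction. Egr4, a zinc finger factor related to Egr1, had 3 counts or fewer in every Ecad female, with a median of 0 TPM, and from 3 to 914 counts in the ΔEcad females. Its fitted log2 fold change was 7.80 (SE 1.78, adjusted p = 0.0394 by edgeR), a value that rests on very few Ecad counts. It was 4.76 without ΔEcad female 4, which held the 914 counts, with an adjusted p of 0.0517, and the call was kept in 21 of 32 fits that each left out a tumour. Over all alternatives the call was also lost with the replicate block (adjusted p = 0.126) and with marker scores as covariates (adjusted p = 0.0964), while DESeq2 made it at an adjusted p of 0.00359. In Ecad males Egr4 ranged up to 314 counts and in ΔEcad males up to 20, with a log2 fold change of -3.46 (SE 1.42, adjusted p = 0.442 by edgeR).

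No gene was called in any of the 5 comparisons among 11 other AP-1 and bZIP partners, 12 upstream kinases and factors or 20 textbook AP-1 targets. Among all tested genes the share called ranged from 0% to 1.2% over these comparisons. In females the lowest p in these lists belonged to Mafk (log2 fold change -0.77, SE 0.32), a small Maf protein, to Mrtfa (0.66, SE 0.35), a coactivator of the serum response factor, and to Areg (2.33, SE 1.02), an EGF receptor ligand. In males the corresponding genes were Batf (1.43, SE 0.68), a bZIP partner of Jun proteins in lymphocytes, Elk3 (0.72, SE 0.28), an ERK-regulated ternary complex factor, and Timp1 (1.52, SE 0.67), an inhibitor of matrix proteases. Among 9 heat shock genes none was called in males, where 0% of all tested genes were. Hspe1, a mitochondrial chaperone, had the lowest p of the 9 there (0.98, SE 0.32). Hspb1, a small chaperone, was called in females, with 8.78 to 134 TPM in Ecad and 49.2 to 758 TPM in ΔEcad tumours. Its log2 fold change was 2.61 (SE 0.68, adjusted p = 0.0497 by edgeR). The call held in 13 of 32 fits that left out a tumour, and with marker scores as covariates the value was 0.94 (adjusted p = 0.714). The call was also lost with the replicate block (adjusted p = 0.129), while DESeq2 made it at an adjusted p of 0.00127.

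The genes were high or low in particular tumours of every group. Places among the 5 highest or lowest of 32 tumours were counted on log2 CPM (counts scaled by library size), without removing group means. Distances in SD were taken on log2 CPM minus the mean of the tumour's group. ΔEcad male 1 was among the 5 highest of 32 tumours for 6 of the 10 genes. It stood 2.99 SD above its group mean for Ier2, 2.96 SD for Fosb, 2.54 SD for Junb and 1.86 SD for Jund, while Atf3 stood at -1.47 SD and Fosl1 at -1.06 SD. Ecad female 1 was among the 5 highest for 4 genes, with Fos at 2.49 SD, Fosb at 1.81 SD and Jun at 1.59 SD. Ecad female 3 had Egr1 at 2.83 SD, Ier2 at 2.12 SD and Junb at 1.54 SD, but Fos at -0.16 SD. Ecad male 1 and Ecad female 2 were each among the 5 lowest for 7 genes and the library labelled ΔEcad male 2 for 5.

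**Figure D3:**
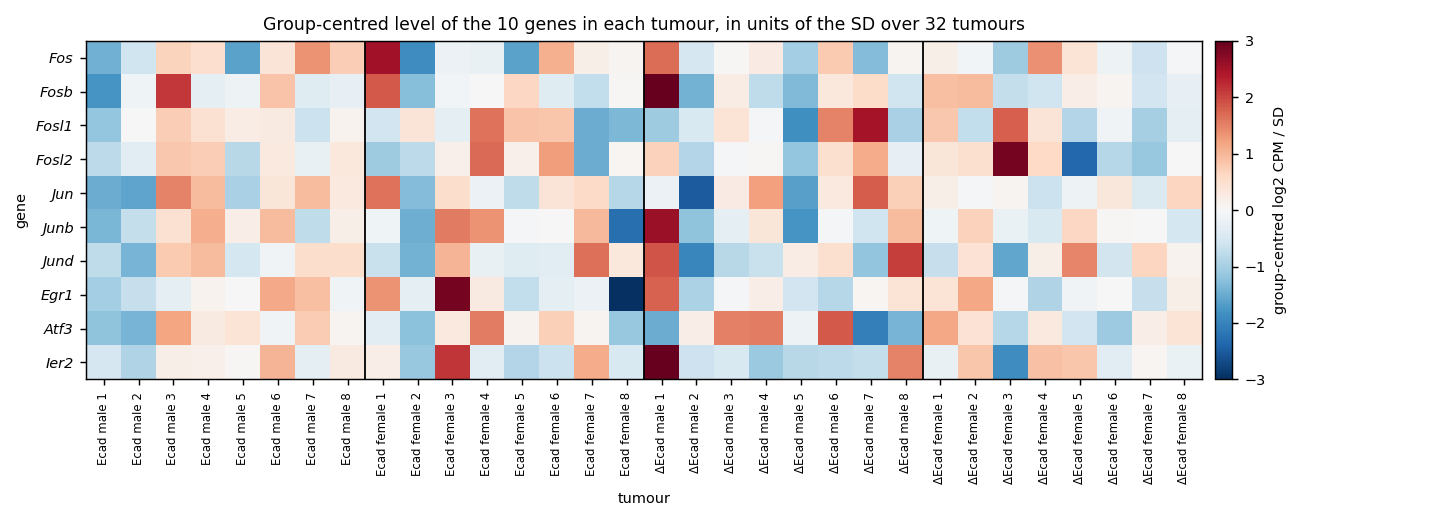
Group-centred log2 CPM of the 10 genes (rows) in 32 tumours (columns), divided by the SD over tumours and coloured from -3 to 3, with vertical lines between groups. ΔEcad male 1 is high for Fosb, Junb, Jund, Egr1 and Ier2 and low for Atf3 and Fosl1, and Ecad male 1 and Ecad female 2 are low for most genes.

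Of the 45 pairs among the 10 genes, 11 co-varied across the 32 tumours, all positively (Pearson r of group-centred log2 CPM, two-sided permutation of tumours within groups, Benjamini-Hochberg over 45 pairs). Over all pairs 39 had a positive r and 6 a negative one, and the median r was 0.269. A median r over all tested genes lay between -0.047 and 0.015 for each of the 10 genes. Many genes outside the list had an r as high as some of these pairs. By r with Ier2 over 17716 other tested genes, Jund ranked 15, Junb 88, Egr1 571 and Fos 1261. In the other direction Ier2 ranked 17 for Jund, 3 for Junb, 31 for Egr1 and 281 for Fos. On ranks 10 pairs passed, 9 of them also on r. The 10 genes fell into pairs and groups as follows.

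Junb, Egr1, Ier2 and Jund formed the closest group. Jund and Ier2 had an r of 0.757 (permutation adjusted p = 0.00045; rho 0.729, adjusted p = 0.00045), positive in each of the 4 groups. Junb and Ier2 had an r of 0.700 (permutation adjusted p = 0.0006; rho 0.651), Junb and Egr1 0.697 (adjusted p = 0.00101; rho 0.577), Junb and Jund 0.572 (adjusted p = 0.0177; rho 0.604) and Egr1 and Ier2 0.570 (adjusted p = 0.0118; rho 0.479). Jund and Egr1, both partners of Junb and Ier2, had an r of 0.260 that did not pass. On the log2(TPM + 1) scale Junb and Jund did not pass (r = 0.428, permutation adjusted p = 0.0956). The 2 tumours farthest from the median of the first gene named in a pair were also left out. The r was then 0.752 for Jund and Ier2, 0.635 for Junb and Ier2 and 0.548 for Junb and Egr1. For Junb and Egr1 these tumours were ΔEcad male 1 and Ecad female 8, so Ecad female 3, the highest for Egr1, was kept. Without ΔEcad male 1 the adjusted p of Egr1 and Ier2 was 0.0828 (r = 0.489), and the adjusted p over all alternatives for this pair ranged from 0.00112 to 0.0828.

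Fosl1 and Fosl2, the Fra proteins that lack the strong activation domain of Fos, had an r of 0.700 (permutation adjusted p = 0.00045; rho 0.693, adjusted p = 0.0027). The r within a group lay between 0.699 and 0.836, and it was 0.632 without the 2 farthest tumours. Neither gene passed with any of the 8 others. Fosl1 had an r of -0.446 with Jund and -0.412 with Ier2, and these did not pass (permutation adjusted p = 0.0754 and 0.125). The sign of Fosl1 with Jund was not the same in every group. Among Ecad males the r was positive, at 0.415. It was negative for ΔEcad males (-0.420) and for the female groups, at -0.561 (Ecad) and -0.884 (ΔEcad, with ΔEcad female 3 included). Fosl1 with Ier2 likewise had a positive r among Ecad males (0.515) and negative ones elsewhere, the lowest being -0.732 for ΔEcad females. These values rest on 8 tumours each, and whether they differ was not tested.

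Fos varied with Fosb (r = 0.504, permutation adjusted p = 0.0333), Jun (r = 0.496, adjusted p = 0.0384) and Ier2 (r = 0.460, adjusted p = 0.0494). The relation of Fos and Fosb did not pass on ranks (rho 0.312, permutation adjusted p = 0.219). For Fos and Jun the r was 0.860 in Ecad males and 0.867 in Ecad females, and 0.086 in ΔEcad males and -0.397 in ΔEcad females. The difference between these values was not tested, and each rests on 8 tumours. Without ΔEcad male 7, in which Jun was high at 252 TPM and Fos low at 40.3 TPM, the pooled r was 0.623. It was 0.378 without the 2 tumours farthest from the median, Ecad females 1 and 2, and at least 0.427 with any 1 tumour left out. Jun also varied with Egr1 (r = 0.467, permutation adjusted p = 0.0384) and Fosb with Junb (r = 0.521, adjusted p = 0.0384; rho 0.350, adjusted p = 0.186). The last of these was 0.339 without ΔEcad male 1 (permutation adjusted p = 0.198). Atf3 passed with none of the 9 other genes, its r lying between -0.121 and 0.269.

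**Figure D4:**
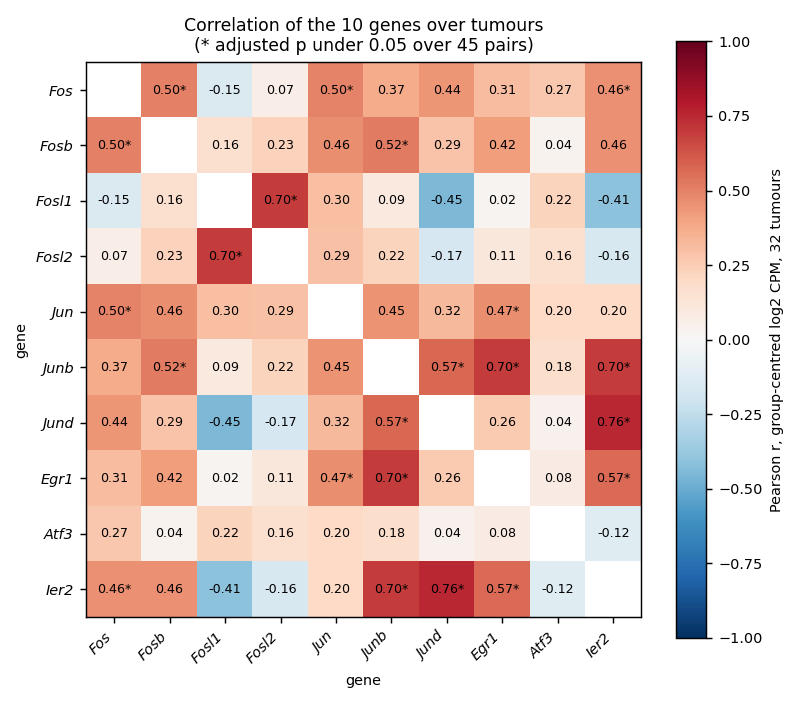
Pearson r of group-centred log2 CPM over 32 tumours for each pair of the 10 genes, coloured from -1 to 1, with an asterisk where the adjusted p over 45 pairs was under 0.05. Jund and Ier2 (0.76), Junb and Ier2 (0.70), Fosl1 and Fosl2 (0.70) and Junb and Egr1 (0.70) have the highest values, and the row of Atf3 has no asterisk.

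Of the 11 pairs, 4 were past the threshold in each of 7 alternative calculations, and these were Fosl1 with Fosl2, Junb with Egr1, Junb with Ier2 and Jund with Ier2. On the log2(TPM + 1) scale 5 of the 11 pairs did not pass. The r of Fos was there 0.461 with Fosb, 0.430 with Jun and 0.296 with Ier2, and none of these passed (permutation adjusted p from 0.0636 to 0.258). The other 2 were Junb with Jund, given above, and Fosb with Junb (r = 0.452, permutation adjusted p = 0.0956). Jun with Egr1 did not pass without the 3 libraries that stood apart (r = 0.469, permutation adjusted p = 0.0606).

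**Figure D5:**
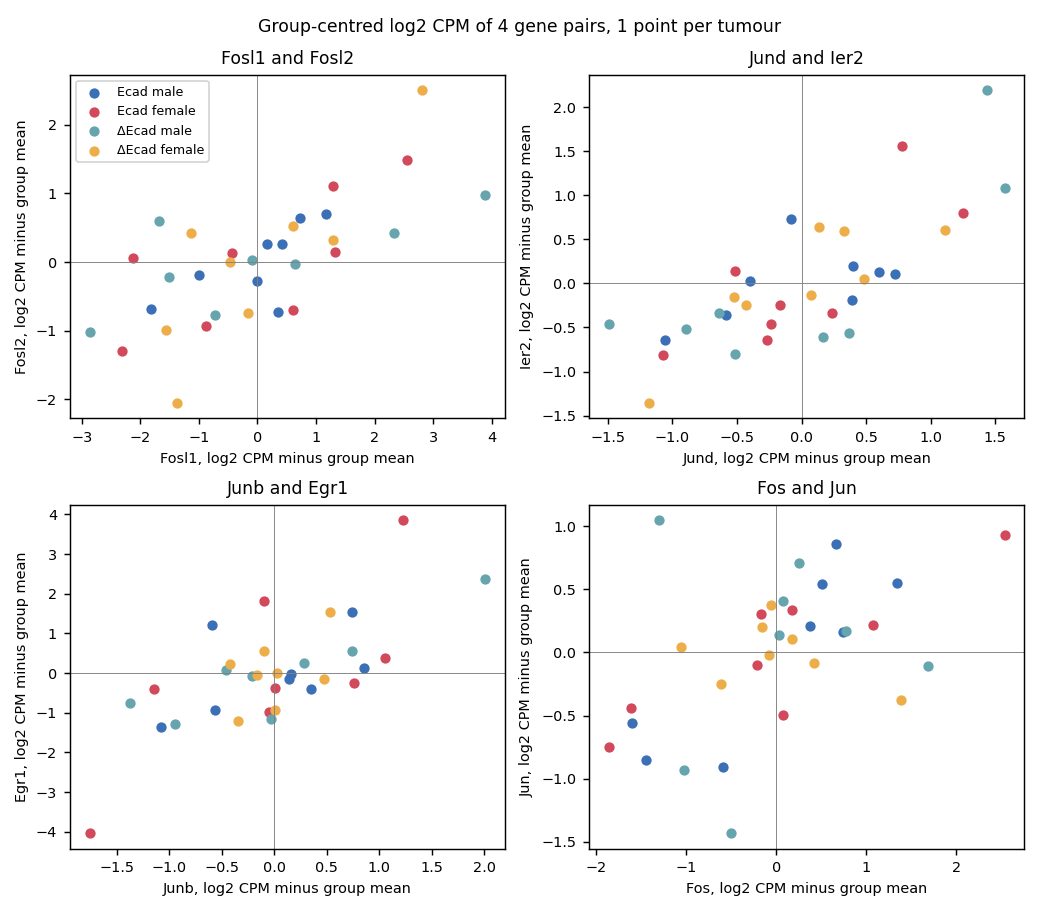
Log2 CPM minus the group mean for 4 pairs of genes, 1 point per tumour coloured by group. Fosl1 and Fosl2 (r = 0.700) and Jund and Ier2 (r = 0.757) rise together in all groups, Junb and Egr1 (r = 0.697) include 2 Ecad females at the ends, and Fos and Jun (r = 0.496) have an r of 0.860 and 0.867 in Ecad males and females and of 0.086 and -0.397 in ΔEcad males and females.

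Jund, Junb and Ier2 lie on chromosome 8 (GRCm38, Jund at chr8:70698949-70700616, Junb at chr8:84974484-84978718, Ier2 at chr8:84661331-84662852). Junb and Ier2 start 313153 bases apart, and Jund lies 13962382 bases from Ier2. Removing the mean of the other tested genes of that chromosome from each gene left an r of 0.744 for Jund and Ier2, 0.708 for Junb and Ier2 and 0.577 for Junb and Jund. Jund nevertheless varied with its neighbours. Over the 89 tested genes within 1 Mb of it the median r was 0.292, beside -0.024 over all tested genes, and 29 of the 89 had an r over 0.4. For Ier2 the median over 66 neighbours was 0.134 and for Junb over 60 neighbours 0.034. The transcripts of these 3 genes were also rich in G and C, at 67.1% for Jund, 62.6% for Junb and 60.9% for Ier2, beside a median of 49.7% over tested genes. Jund had an r of 0.474 with a contrast of GC-rich against GC-poor genes in each tumour (permutation adjusted p = 0.107 over 10 genes), and with that contrast removed the r of Jund and Ier2 was 0.711.

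The genes most like each member outside the list, by the same r over 32 tumours, were the following. For Junb they were Zfp36 (r = 0.763), which encodes the RNA-decay factor tristetraprolin, Ppp1r15a (0.705), a stress-induced phosphatase subunit, and Prdx5 (0.683). Both Zfp36 and Ppp1r15a are immediate early or stress-response genes. For Atf3 they were Bhlhe40 (0.682), a repressor of the clock and hypoxia responses, Hk2 (0.646), a hexokinase, and Rabgef1 (0.645). For Fosl1 they were Lamb1 (0.856), a laminin chain, Chst2 (0.829) and Ptprn (0.803), and for Fosl2 Rars (0.815), an aminoacyl-tRNA synthetase, Nfil3 (0.776), a bZIP repressor, and Ywhaz (0.758). For Fos they were Kcna6 (0.693), Sh3bp5 (0.676) and Dclk1 (0.646), for Fosb Btbd16 (0.678), Nanos3 (0.651) and 4933421O10Rik (0.643), and for Jun Map1b (0.663), Slc41a2 (0.656) and Rps6kc1 (0.5999). For Egr1 they were Mcur1 (0.794), Nfyb (0.683) and Smim13 (0.677). For Ier2 they were Ndufs7 (0.814) and Uqcrh (0.803), both of the mitochondrial respiratory chain, and D8Ertd738e (0.793). For Jund they were Kxd1 (0.841), Gm45774 (0.822) and Gm11175 (0.819), all on chromosome 8. Gm11175 overlaps Jund on the opposite strand, and although the libraries were made with a stranded kit, whether the counting used strand is not given in the sources used here, so the values of the 2 genes may share reads. The same holds for Fosl1 with Ccdc85b, Jun with Junos and Junb with Prdx2, though the r within these pairs was 0.035, 0.278 and 0.292.

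Marker lists were compared with the same genes in 130 relations, 13 lists for each of the 10. In these relations 2 passed. Fosl1 varied with the mean of 8 fibroblast markers (r = 0.664, permutation adjusted p = 0.0247; rho 0.674, adjusted p = 0.0117), with an r of 0.894, 0.860 and 0.687 in Ecad males, Ecad females and ΔEcad males and 0.167 in ΔEcad females. Atf3 varied with the neutrophil markers (r = 0.547, permutation adjusted p = 0.0422; rho 0.533, adjusted p = 0.0741). Without the 3 libraries that stood apart neither passed, at r = 0.591 (permutation adjusted p = 0.0939, in a range from 0.0039 to 0.0939 over alternatives) and r = 0.520 (adjusted p = 0.110, in a range from 0.0269 to 0.110). Summed fibroblast markers ranged from 65.4 TPM in ΔEcad male 1, where Fosl1 was lowest, to 9541 TPM in ΔEcad female 3. That library was the lowest in endothelial, neutrophil and macrophage markers. Which cells of the tumour carried Fosl1 or Atf3 RNA was not tested. Jund had an r of -0.539 with heat shock genes and 0.527 with red blood cell genes, Fosl2 -0.615 with macrophage markers, and none of these passed. Jun passed on ranks but not on r with skeletal muscle (rho -0.511) and adipocyte markers (rho -0.558, permutation adjusted p = 0.0312 for both). The 10 genes did not vary with the total count of the tumour at an adjusted p under 0.05, the highest r being 0.337 for Jun and for Fos.

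Grpr, the receptor gene the study follows, was measured at 3.52 to 263 TPM in ΔEcad females and at 5.14 TPM or less in the other groups. Within the 8 ΔEcad females none of the 10 genes passed with it (exact permutation over 40320 orders, adjusted over 10 relations). Fosl1 had an r of 0.702 (exact permutation p = 0.0513, adjusted p = 0.284) and Junb an r of -0.700 (exact p = 0.0568, adjusted p = 0.284) with a rho of -0.833 (exact p = 0.0154, adjusted p = 0.154). ΔEcad female 3 had the highest Grpr, Fosl1 and Fosl2 of the group, and without it the r was 0.605 for Fosl1 and -0.704 for Junb. On the log2(TPM + 1) scale the r of Junb was -0.341 (rho -0.238) and that of Fosl1 0.734 (rho 0.786), and neither passed (exact permutation adjusted p = 0.657 and 0.339).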

How the data were processed

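RNA of 32 mouse melanomas was sequenced as poly(A) libraries made with a stranded kit. The authors aligned the reads with STAR to mm10 (GENCODE M13) and deposited raw counts per gene and TPM values. FastQC 0.11.5 stands in the submitters' processing notes, and whether counting used strand and which files were batch-adjusted with ComBat are not given in the sources used here. The deposited TPM were used for levels, and the counts for tests. Gene names came from GENCODE M21 (50376 of 50600 identifiers).

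Counts were tested with edgeR 4.0.16 (R 4.3.3) by the quasi-likelihood test with TMM scaling, a filter on low counts, 1 coefficient per group over all 32 tumours and Benjamini-Hochberg adjustment over 17717 genes. The SE is the absolute log2 fold change divided by the square root of F. DESeq2 1.42.0, RLE size factors, no filter, a replicate block, marker scores as covariates and left-out tumours were alternatives. Leaving out the 3 libraries that stood apart was among them, while leaving out ΔEcad male 1 for the pairs and removing a GC contrast were chosen after seeing the data. The fits were tested on simulated data.

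Co-variation used log2 CPM (prior count 2) minus the group mean and 100000 permutations of tumours within groups, the smallest p being 0.00001. Genes were named by a rule covering all 10 members, the 3 most alike genes of each, and, from each list, called genes or else the smallest p in the genotype comparisons, with marker lists limited here to those a result turns on. The members and lists were chosen with earlier results of these data known. Total counts per tumour ranged from 24036333 to 63923086, and the lowest count of any of the 10 genes was 29.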

Additional observations from a re-analysis of the deposited data

Results flagged for a closer look

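In 40 sets of 8 values (10 genes in 4 groups, log2 CPM), 2 held a tumour whose distance to the nearest other was above the critical value of Dixon's test, where chance gives about 1 in 20. Fosb in ΔEcad male 1 was 6.85, while the 7 other ΔEcad males lay between 1.14 and 3.68, and its level was 25.4 TPM. Ier2 in ΔEcad female 3 was 4.34, while the 7 other ΔEcad females lay between 5.44 and 6.33. ΔEcad female 3 is also the library with 0 counts over red blood cell genes.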

How the results depend on the processing

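No member was called under any setting except Atf3 between Ecad sexes with DESeq2 (1 member). Of 50 member results 24 changed sign in some alternative, and of 1600 values with a tumour left out 31 did, with 0 newly called. The causes were not tested. The common dispersion was 0.624, and the lowest count of any member in a tumour was 29.

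Counts of all genes moved more. DESeq2 called 1281 genes in the female genotype comparison, 21 in males, 1023 between Ecad sexes, 24 between ΔEcad sexes, 1225 for the interaction and 735 among the 4 groups. RLE size factors gave 322 in females and 201 for the interaction. Without the low count filter the counts were 555, 284 and 483 in females, for the interaction and among the 4 groups. Marker scores as covariates gave 6 in females, 16 between Ecad sexes, 3 for the interaction and 29 among the 4 groups. Without the 3 libraries that stood apart they were 569 in females and 36 among the 4 groups. With a tumour left out they ranged from 1 to 695 in females, 8 to 21 between Ecad sexes, 0 to 848 for the interaction and 37 to 187 among the 4 groups.

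The labels do not say what the replicate numbers mean, and correlations of levels cannot show whether they pair the samples. Same-numbered tumours of different groups had correlations from -0.546 to 0.444 (median 0.035, beside -0.013 for different numbers). Of 32 tumours, 1 correlated best with its own number. The replicate block gave 1 called gene in females and 8 among the 4 groups. It reversed Jun (0.0080) and Jund (0.044) in females, Fos (-0.089), Fosb (-0.12) and Egr1 (-0.18) in males, and Jun (0.10) and Atf3 (0.012) between ΔEcad sexes.

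With covariates the reversed log2 fold changes were Jun (0.052) and Jund (0.14) in females, Fosl1 (-0.023) and Fosl2 (-0.29) in males, Fosb (0.48), Fosl1 (-0.26) and Fosl2 (-0.39) between Ecad sexes, Fosl1 (0.076) and Jun (0.13) between ΔEcad sexes and Fosl1 (0.33) for the interaction. Without the 3 libraries they were Fosl1 (-0.58), Fosl2 (-0.049) and Jund (0.046) in females, Fosl2 (-0.013) in males and Fosl2 (-0.036) for the interaction.

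With a tumour left out, sign changes occurred in females within -0.58 to 0.86 for Fosl1, -0.047 to 0.97 for Fosl2, -0.26 to 0.20 for Ier2, -0.20 to 0.083 for Jun and -0.28 to 0.18 for Jund. In males the ranges were -0.45 to 0.53 for Egr1, -0.19 to 0.40 for Fos, -0.83 to 1.61 for Fosb, -0.10 to 0.18 for Fosl2 and -0.13 to 0.50 for Junb. Between Ecad sexes they were -0.92 to 0.60 for Fosb, -0.24 to 0.60 for Fosl1, -0.21 to 0.26 for Fosl2 and -0.042 to 0.39 for Junb. Between ΔEcad sexes they were -0.77 to 0.28 for Egr1, -1.57 to 0.50 for Fosl1, -0.033 to 0.87 for Fosl2, -0.72 to 0.022 for Ier2, -0.21 to 0.11 for Jun and -0.57 to 0.098 for Junb. For the interaction they were -1.92 to 0.15 for Fosl1 and -0.11 to 0.91 for Fosl2.

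On the log2(TPM + 1) scale 6 pairs and 4 relations with marker lists passed. With group means kept 1 relation with marker lists passed and without the 3 libraries 0 did. Without ΔEcad male 1, 9 pairs passed, of which 7 were among the 11.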
